A study of Mus musculus with 12 samples.

Results

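Sterol and fatty acid synthesis was examined through 30 genes, of 21900 protein-coding genes in the mouse gene table. The 30 genes encode enzymes of cholesterol synthesis, enzymes of fatty acid synthesis, proteins that control both and a sterol carrier protein. The measurement was ATAC-seq, which uses a transposase to tag accessible chromatin, in sorted myeloid cells of C57BL/6J mice. A peak was counted for a gene when its centre lay inside the gene, or when the gene was the nearest protein-coding gene within 100 kb. The series holds 12 libraries, 2 for each of 6 groups, and a single list of peaks represents both libraries of a group. The list KC-H came from F4/80-Hi Tim4-Pos Kupffer cells (macrophages resident in liver) of mice on the control diet. KC-N came from the same sorted population on the NASH diet, which models nonalcoholic steatohepatitis. The remaining 4 lists also came from mice on the NASH diet: F4/80-Hi Tim4-Neg Kupffer cells (KN-RM), recruited liver macrophages sorted as Cd11b-Hi, named Ly6CHi-RM where Ly6C was high and Ly6CLo-RM where it was low, and Ly6C-Hi blood monocytes (Blood-Ly6CHi-NASH, called the blood list). The control diet was used for KC-H alone, so diet can be compared in Tim4-Pos Kupffer cells and in no other population. The age and sex of the mice and any pooling of animals were not given in the sources used here.

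Cells make cholesterol from acetyl-CoA through mevalonate, farnesyl units, squalene and lanosterol, and they make long-chain fatty acids from the same precursor through malonyl-CoA. The transcription factor encoded by Srebf2 activates the sterol genes. When membranes hold enough sterol, the escort protein Scap and the precursor of this factor are held in the endoplasmic reticulum by Insig proteins, and the genes are less active. Nuclear factor Y and Sp1 are known partners of this factor at promoters, and macrophages also obtain cholesterol by taking up lipoproteins and dead cells.

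The stretches before the gene starts are shown as the setting of the promoter peaks; a peak can cover part of a printed stretch, bases outside it, or both. RefSeq promoter sequences of GRCm38.p6 were matched for 25 of the 30 genes. There was no entry for Fdps, Fdft1, Sqle, Stard4 and Fads1. The 8 promoters shown were picked by name and do not stand for all 25. They are those of 6 sterol genes with a promoter peak in every list, and of Elovl6 and Me1, which lacked one in several lists. Each is the 250 bases before the gene start, 5′ to 3′ on the strand of the gene. Capitals mark every match on either strand to TCACNCCAC (a form of the sterol response element), CACGTG (an E-box), CCAAT (the NF-Y box) or GGGCGG (the Sp1 box); adjoining matches run together.
Hmgcs1 (chr13:119690101-119690350, plus strand): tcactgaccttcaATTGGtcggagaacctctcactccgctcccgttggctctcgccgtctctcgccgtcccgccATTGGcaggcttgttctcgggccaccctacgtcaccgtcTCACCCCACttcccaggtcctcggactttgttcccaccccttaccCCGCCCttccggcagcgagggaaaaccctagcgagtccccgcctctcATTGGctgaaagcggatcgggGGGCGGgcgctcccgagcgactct
Msmo1 (chr8:64733579-64733828, minus strand): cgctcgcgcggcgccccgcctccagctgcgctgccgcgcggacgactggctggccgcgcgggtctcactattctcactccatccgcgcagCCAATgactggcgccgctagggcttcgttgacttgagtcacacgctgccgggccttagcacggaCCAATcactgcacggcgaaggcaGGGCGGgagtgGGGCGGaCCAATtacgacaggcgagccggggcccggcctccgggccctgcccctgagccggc
Hsd17b7 (chr1:169969206-169969455, minus strand): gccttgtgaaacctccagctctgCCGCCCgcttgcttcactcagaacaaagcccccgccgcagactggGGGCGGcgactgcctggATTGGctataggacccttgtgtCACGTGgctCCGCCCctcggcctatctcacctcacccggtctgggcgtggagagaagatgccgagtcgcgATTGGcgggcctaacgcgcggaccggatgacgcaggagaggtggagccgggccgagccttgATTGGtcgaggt
Sc5d (chr9:42264301-42264550, minus strand): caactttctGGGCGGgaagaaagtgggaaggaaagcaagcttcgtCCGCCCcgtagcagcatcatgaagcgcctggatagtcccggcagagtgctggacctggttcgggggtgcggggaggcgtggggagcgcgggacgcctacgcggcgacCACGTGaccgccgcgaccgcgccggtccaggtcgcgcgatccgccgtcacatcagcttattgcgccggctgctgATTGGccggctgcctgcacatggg
Dhcr7 (chr7:143829964-143830213, plus strand): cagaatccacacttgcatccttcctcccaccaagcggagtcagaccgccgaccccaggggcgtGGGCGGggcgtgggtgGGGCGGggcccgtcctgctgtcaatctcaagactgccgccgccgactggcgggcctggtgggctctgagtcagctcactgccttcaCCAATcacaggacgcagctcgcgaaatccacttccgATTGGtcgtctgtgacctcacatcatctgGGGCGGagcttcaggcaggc
Insig1 (chr5:28071162-28071411, plus strand): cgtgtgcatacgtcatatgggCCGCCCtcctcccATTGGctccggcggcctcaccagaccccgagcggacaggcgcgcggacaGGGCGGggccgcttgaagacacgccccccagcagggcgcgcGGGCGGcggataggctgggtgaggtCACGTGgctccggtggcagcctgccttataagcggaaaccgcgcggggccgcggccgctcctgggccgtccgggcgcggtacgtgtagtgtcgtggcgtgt
Elovl6 (chr3:129532136-129532385, plus strand): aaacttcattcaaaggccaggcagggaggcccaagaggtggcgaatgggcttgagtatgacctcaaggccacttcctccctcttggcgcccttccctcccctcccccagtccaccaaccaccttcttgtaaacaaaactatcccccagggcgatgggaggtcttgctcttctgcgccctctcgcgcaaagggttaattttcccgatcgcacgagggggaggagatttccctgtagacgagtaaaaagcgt
Me1 (chr9:86695915-86696164, minus strand): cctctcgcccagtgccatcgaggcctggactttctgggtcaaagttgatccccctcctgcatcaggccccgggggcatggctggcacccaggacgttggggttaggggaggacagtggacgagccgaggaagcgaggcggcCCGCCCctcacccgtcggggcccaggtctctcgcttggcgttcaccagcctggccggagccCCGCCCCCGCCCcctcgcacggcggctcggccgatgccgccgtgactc

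The letters of the NF-Y and Sp1 boxes were found at most of these genes; their shares have no test. In windows of 250 bases before to 50 bases after each start, CCAAT was found for 20 of 25 of the genes (80.0%, 95% Wilson interval 60.9% to 91.1%), against 42.3% of 17492 protein-coding genes with a promoter entry. GGGCGG was found for 21 of 25 (84.0%, 65.3% to 93.6%), against 49.2%. The E-box CACGTG was found for 5 of 25 (20.0%, 8.86% to 39.1%), namely Hsd17b7, Sc5d, Dhcr7, Insig1 and Scap, against 8.91%. Of 22 other genes of these pathways with a promoter entry, 17 held CCAAT, 17 GGGCGG and 5 CACGTG. The Dhcr7 match lies at another of its listed starts than the one shown. TCACNCCAC was found for Hmgcs1 alone (4.00%), 137 to 129 bases before the start, against 1.41%. The direct repeat bound by LXR, known as DR4, was searched only as an exact match to its consensus. That exact form was found in none of the 25 and in none of the 17492. The search therefore cannot tell these genes from others, and inexact forms of the repeat were not examined. These matches are letters in a window and do not show that a factor was bound there.

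The populations were checked through genes that mark cell types. The 5 Kupffer cell genes (Clec4f, Timd4, Cd5l, Vsig4 and Marco) had the most peaks, 79, in KC-H, against 30 for KC-N, 16 for KN-RM, 10 for Ly6CHi-RM, 4 for Ly6CLo-RM and 13 for blood. Timd4, which encodes the sorting marker Tim4, had 17 in KC-H but 1 in KC-N, so the locus of the sorting marker was almost without peaks in KC-N, a population sorted as positive for the protein, which peaks do not measure. Among the 5 Kupffer cell genes, Vsig4 alone had the most peaks in blood: 6, with KC-H at 5, Ly6CHi-RM at 4 and KC-N at 2. KN-RM and Ly6CLo-RM held 1 Vsig4 peak each. The 5 monocyte genes had 13 peaks in KN-RM to 36 in the blood list. The 5 hepatocyte genes had 1 to 3 peaks in the liver lists and 13 in the blood list, 11 of them at Alb, and no promoter peak in any list. Hepatocytes make sterols. Of their 5 genes, Ttr had 1 or 2 peaks in every list, and Serpina1a and Cyp2e1 had none in any list. Alb also had 1 peak in each of KC-H and KC-N, and Apoa1 had 1 in each of Ly6CHi-RM and blood. Of the remaining marker lists, liver endothelial genes had 13 to 31 peaks with the most in KC-H, T and NK cell genes 7 to 15, neutrophil genes 0 to 7, stellate cell genes 0 to 4 and B cell genes 1 in every list. The part of these cells in the results below was not tested. The lists held 34293 (KN-RM) to 69616 (blood) peaks; no depth per library was given in the sources used here. With 1 list per group no value has a replicate error, no difference between lists has a test, and intervals cover counting error only.

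The genes had peaks in every population. In total they were assigned 76 peaks in KC-H, 63 in KC-N, 54 in KN-RM, 91 in Ly6CHi-RM, 82 in Ly6CLo-RM and 106 in the blood list. All 30 genes had a peak in KC-H, Ly6CLo-RM and blood, 29 in Ly6CHi-RM and 27 in each of KC-N and KN-RM. Mvk and Tm7sf2 are not among these 27. Each had a promoter peak in KC-N and KN-RM that was assigned to a neighbour, Mmab or Vps51. The shortest list had the fewest and the longest the most, but KC-H had fewer than Ly6CHi-RM and Ly6CLo-RM, which are shorter. When each list was reduced to its 34293 best-scored peaks, the totals were 52, 50, 54, 60, 55 and 58 in the same order. The median per gene was 2 peaks in KC-H, KC-N, Ly6CHi-RM and Ly6CLo-RM, 1.5 in KN-RM and 3 in the blood list, where the median of all protein-coding genes was 1 in the 5 liver lists and 2 in blood. Several genes had few peaks: Hmgcs1, Nsdhl and Hsd17b7 had exactly 1 in each list, and Acat2 exactly 2. Elovl6, Insig1, Me1, Fads1, Mvd and Srebf2 had the most over all lists.

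**Figure D1:**
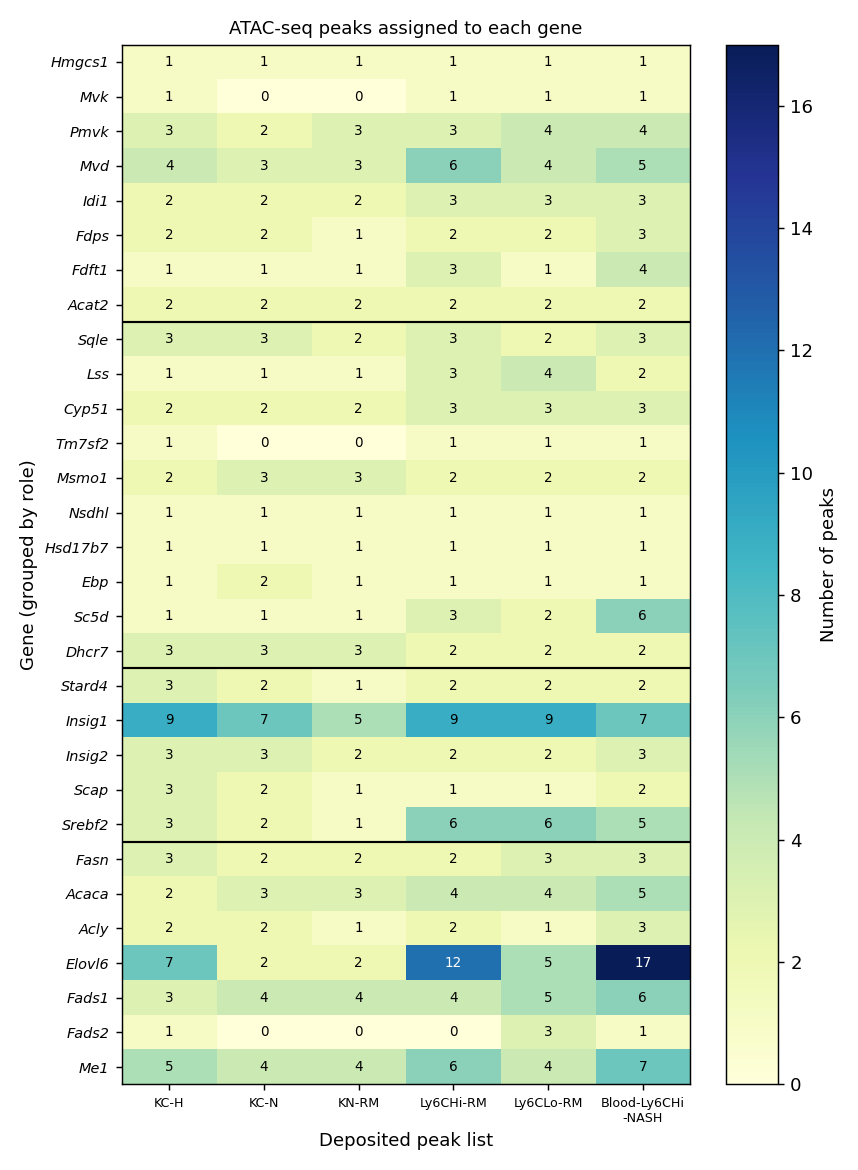
Number of peaks assigned to each of the 30 genes (rows, with lines between the mevalonate, late sterol, control and fatty acid groups) in each deposited list (columns); darker cells hold more peaks. Elovl6 ranges from 2 peaks in KC-N and KN-RM to 17 in the blood list, while Hmgcs1, Nsdhl and Hsd17b7 hold 1 peak in every list.

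Promoters of the sterol genes were open in all 6 populations. A promoter peak, with its centre within 1000 bp of a listed gene start, was present in all 6 lists for 25 of 30 genes (83.3%, 95% Wilson interval 66.4% to 92.7%), against 43.6% of all protein-coding genes. By list the count was 28 in KC-H (all genes: 52.6%), 25 in KC-N (49.0%), 25 in KN-RM (44.9%), 26 in Ly6CHi-RM (52.2%), 27 in Ly6CLo-RM (51.0%) and 28 in the blood list (53.8%). All 10 genes from squalene to cholesterol had one in every list. So did all 5 genes of control and sterol transport (called control genes), 7 of 8 genes of the mevalonate arm and 3 of 7 fatty acid genes. The 5 exceptions were Fdft1, Acaca, Elovl6, Fads2 and Me1. For Fdps, Fdft1, Sqle, Stard4 and Fads1, which have no strand in the table, either gene end was accepted as a start. Peaks at 7 of these 25 promoters can belong to a neighbour as well: listed starts of Mvk and Mmab are 242 bp apart, those of Fdps and Rusc1 225 bp, Sqle and Washc5 670 bp, Tm7sf2 and Vps51 8 bp, Nsdhl and Cetn2 177 bp, Dhcr7 and Nadsyn1 315 bp, and Ebp and Porcn 334 bp.

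The promoter peaks also ranked high within their lists. Every peak carries a score, a whole number given by the authors, and its rank within its own list is expressed here as the best percentage of that list. The median rank of the genes' best promoter peak lay in the best 4.77% of KC-H, 5.44% of KC-N, 6.09% of KN-RM, 5.56% of Ly6CHi-RM, 6.32% of Ly6CLo-RM and 5.33% of the blood list. Over all genes with a promoter peak the median lay between the best 13.0% (blood) and the best 21.1% (KN-RM). Fatty acid genes ranked lower than the sterol groups, with medians from 14.6% in KC-H to 30.5% in the blood list. Medians of the 3 sterol and control groups were between 2.64% and 9.54%. Each median covers only the genes with a promoter peak in that list. The blood median of the fatty acid genes includes Elovl6, Fads2 and Me1, which those of KC-N and KN-RM do not. Since more peaks lie ahead in a longer list, ranks are read within a list only.

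**Figure D2:**
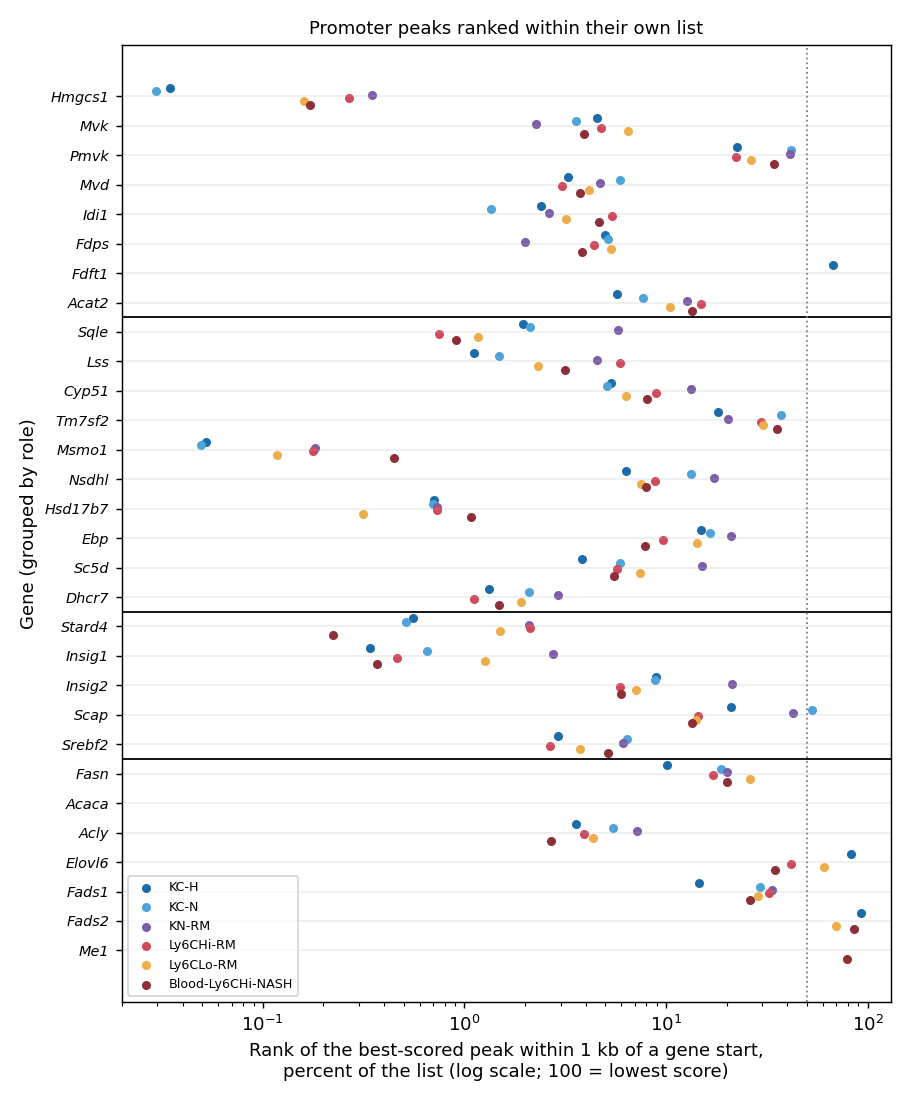
Rank of the best-scored peak within 1 kb of a listed start of each gene (rows), as a percentage of its own list on a log axis; each dot is 1 list and the dotted line marks 50%. Hmgcs1 and Msmo1 lie within the best 0.448% of every list, and the few dots right of the line belong to Fdft1, Scap, Elovl6, Fads2 and Me1.

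Among genes of the mevalonate arm, Hmgcs1, which makes the precursor of mevalonate, had the best-ranked promoter peaks. The score of its peak was 329 in KC-H, 235 in KC-N, 121 in KN-RM, 223 in Ly6CHi-RM, 217 in Ly6CLo-RM and 224 in blood. Its place was 22 of 63501 peaks in KC-H, 15 of 50550 in KC-N, 119 of 34293 in KN-RM, 164 of 61492 in Ly6CHi-RM, 87 of 54621 in Ly6CLo-RM and 119 of 69616 in blood. The peak is centred 90 to 147 bp before the start, on the stretch printed above that holds the sterol response element letters, and no other peak of any list was assigned to the gene. Idi1 (isopentenyl diphosphate isomerase), Fdps (farnesyl diphosphate synthase), Mvk (mevalonate kinase) and Mvd (mevalonate decarboxylase) had promoter peaks between the best 1.36% and 6.45% of their lists; that of Mvk was assigned to Mmab in KC-N, KN-RM, Ly6CHi-RM and blood. Acat2, an acetyl-CoA acetyltransferase, lay between 5.73% and 15.0%, and Pmvk, phosphomevalonate kinase, between 22.2% and 41.5%. Fdft1, the squalene synthase gene, had no promoter peak except a low one of KC-H (score 36, best 67.3%) that was assigned to its neighbour Ctsb. It had instead a peak in every list, in the best 0.805% to 2.89%, at chromosome 14, 63177877 to 63178120, which is inside the gene and 3689 bp from its end in the table. No start is listed for Fdft1, so only its gene ends were examined and a promoter peak elsewhere would be missed.

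From squalene to cholesterol the best-ranked promoter was that of Msmo1, a sterol C4 demethylation enzyme. Its score was 319 in KC-H, 226 in KC-N, 128 in KN-RM, 228 in Ly6CHi-RM, 221 in Ly6CLo-RM and 211 in blood, and its rank lay in the best 0.0495% to 0.448% of all lists. Hsd17b7, which acts in the same demethylation, followed with ranks of 0.313% to 1.08%. Sqle (squalene epoxidase) ranked at 0.751% to 5.81%, Dhcr7, which catalyses the last reduction to cholesterol, at 1.11% to 2.91%, and Lss (lanosterol synthase) at 1.12% to 5.88%. For Dhcr7 the best peak of KC-N, KN-RM and Ly6CLo-RM lay at another listed start than the printed one and was assigned to the neighbour Nadsyn1. The peak at the printed start ranked at 2.20% for KC-N, 3.54% for KN-RM and 2.18% for Ly6CLo-RM. Sc5d (a sterol desaturase) ranked at 3.81% to 15.1%, Cyp51 (lanosterol demethylase) at 5.10% to 13.3%, Nsdhl (a demethylation enzyme) at 6.35% to 17.3%, and Ebp (a sterol isomerase) at 7.89% to 21.1%. Tm7sf2, a sterol reductase gene, had the lowest ranks, 18.0% to 37.1%, and its promoter peak was assigned to Vps51.

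The control genes lay in the same range. Stard4, which encodes a sterol carrier protein, ranked at 0.223% to 2.11%, and Insig1 at 0.339% to 2.74%. Srebf2 ranked at 2.66% to 6.40% and Insig2 at 5.89% to 21.2%. Scap ranked at 21.1% in KC-H, 53.0% in KC-N, 42.5% in KN-RM, 14.4% in Ly6CHi-RM, 14.1% in Ly6CLo-RM and 13.5% in blood, so KC-N was the only list in which it fell outside the best-scored 50%.

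The fatty acid genes were divided. Acly, which makes cytosolic acetyl-CoA from citrate, ranked at 2.69% to 7.14%; Fasn, fatty acid synthase, at 10.1% to 26.0%; and the desaturase gene Fads1 at 14.6% to 33.5%. Elovl6, an elongase of saturated fatty acids, had a promoter peak in 4 lists, with scores of 30 in KC-H, 55 in Ly6CHi-RM, 33 in Ly6CLo-RM and 62 in blood, and none in KC-N or KN-RM. Fads2, a further desaturase gene, had low-ranked ones in KC-H (92.7%), Ly6CLo-RM (70.0%) and blood (85.7%). Me1, malic enzyme, had 1 in the blood list alone, at 79.5%. The promoter of Elovl6 printed above holds none of the 4 letter patterns, and the Me1 window printed there holds GGGCGG only. Acaca, acetyl-CoA carboxylase, had no peak within 1000 bp of its listed start but a peak in the best 1.73% to 6.02% of every list at chromosome 11, 84179403 to 84179695, inside the gene, at -15889 bp from that start. The table lists 1 start for Acaca, so other starts were not examined here.

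Peaks of all lists that overlapped were merged, giving 136 regions at these genes, 79 inside and 57 outside the gene. All 6 lists held 45 of them (33.1%, 25.7% to 41.4%), against 25.9% of regions of all genes, and 28 genes had at least 1; Tm7sf2 and Fads2 had none. Regions found in 1 list numbered 35 (25.7%, against 27.3%). Of 47 regions within 1000 bp of a start of any protein-coding gene, 30 were in all 6 lists (63.8%, 49.5% to 76.0%; all genes 49.0%), and of 89 regions farther away 15 were (16.9%, 10.5% to 26.0%; all genes 18.6%). The share was above that of all genes near gene starts and close to it in distal regions.

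**Figure D3:**
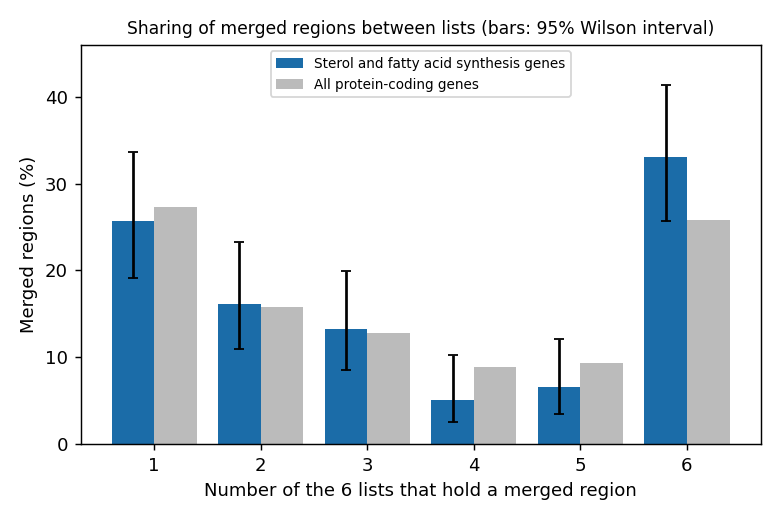
Percentage of merged regions (vertical axis) held by 1 to 6 of the lists (horizontal axis), for the 136 regions of the sterol and fatty acid synthesis genes (blue, with 95% Wilson intervals for counting error) and for 95372 regions of all protein-coding genes (grey). The largest blue bar is at 6 lists, 33.1% against 25.9%.

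Kupffer cells of the control diet and the NASH diet were compared to see what the diet changed in resident cells. The strong peaks of these genes were shared: of 48 peaks in the best-scored 50% of KC-H, 0 were without an overlapping peak in KC-N (which allows a share of up to 6.25%; all genes 5.42%). Of 43 such peaks of KC-N, 1 was absent from KC-H (2.33%, 0.412% to 12.1%; all genes 3.64%). That peak is at Msmo1, 7265 bp into the gene, with a score of 72 in the best 16.6% of KC-N, and the nearest KC-H peak centre was 265 bp away. Without regard to score, KC-N lacked 20 of the 76 peaks of KC-H (26.3%; all genes 31.0%) and KC-H lacked 8 of the 63 of KC-N (12.7%; all genes 13.3%). These shares were near those of all genes. By gene, 12 of 30 had more peaks in KC-H (40.0%; all genes 50.6%), 4 had more in KC-N (13.3%; all genes 13.2%) and 14 were equal. Elovl6 differed most, with 7 peaks on the control diet against 2, followed by Insig1 with 9 and 7. The other 10 genes had 1 more peak in KC-H: Fads2, Mvk and Tm7sf2 (1 and 0), Pmvk, Mvd, Stard4, Scap, Srebf2, Fasn and Me1. For Mvk this is a difference of assignment only. Its promoter peak was also in KC-N (best 3.56%), where it was assigned to the neighbour Mmab. The Elovl6 peaks of KC-H absent from KC-N numbered 6, all in the lower-scored part of the list, and with equal-length lists both had 1 peak. Ebp, Acaca, Msmo1 and Fads1 had 1 more peak in KC-N than in KC-H.

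Tim4-Pos and Tim4-Neg Kupffer cells of the NASH diet are represented by the lists KC-N and KN-RM. At Stard4 a KC-N peak 369 bp from the gene end (score 46, best 38.3%) was absent from KN-RM, and at Insig1 one at -34439 bp from the start (score 43, best 42.4%); KN-RM centres lay 487 and 426 bp away. These were the 2 of 43 best-scored KC-N peaks absent from KN-RM (4.65%, 1.28% to 15.5%; all genes 6.23%), and 0 of 36 of KN-RM were absent from KC-N (which allows a share of up to 8.33%; all genes 0.963%). Without regard to score, 12 of 63 KC-N peaks were absent from KN-RM (19.0%, 11.2% to 30.4%; all genes 35.6%) and 3 of 54 KN-RM peaks from KC-N (5.56%; all genes 5.67%). More peaks in KC-N were found at 9 of 27 genes with a peak in either list (33.3%; all genes 56.3%), and more in KN-RM at 1, Pmvk (3.70%; all genes 4.89%). Insig1 had 7 peaks in Tim4-Pos against 5 in Tim4-Neg cells, and Acly and Ebp had 2 and 1. KN-RM is the shortest list, and the share absent from it was near that of all genes in the best-scored 50% and below it over all peaks; neither difference has a test.

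Blood monocytes and Ly6CHi-RM were compared to see how the genes differ between blood and liver. No peak of the best-scored 50% was specific to either list: 0 of 59 in blood (which allows up to 5.08%; all genes 2.16%) and 0 of 52 in Ly6CHi-RM (which allows up to 5.77%; all genes 1.64%). Without regard to score, 20 of 106 blood peaks were absent from Ly6CHi-RM (18.9%; all genes 21.1%) and 5 of 91 Ly6CHi-RM peaks from blood (5.49%; all genes 10.9%). More peaks in blood were found at 13 of 30 genes (43.3%; all genes 40.6%) and more in Ly6CHi-RM at 4 (13.3%; all genes 14.8%). Elovl6 had 17 peaks in blood against 12 in liver, Sc5d had 6 and 3, and Fads1 had 6 and 4. Insig1 went the other way with 7 and 9, as did Lss with 2 and 3, Mvd with 5 and 6 and Srebf2 with 5 and 6. The labels' protocol describes liver cells freed by enzyme digestion, and how blood cells were isolated was not given in the sources used here. Isolation and tissue therefore cannot be told apart.

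In the full lists, the peak counts of recruited macrophages with high and low Ly6C differed most at Elovl6 and Fads2. Elovl6 had 12 peaks in Ly6CHi-RM and 5 in Ly6CLo-RM, Fdft1 had 3 and 1, and Me1 and Mvd each had 6 and 4. Fads2 had 0 in Ly6CHi-RM and 3 in Ly6CLo-RM, and Fasn, Lss, Pmvk and Fads1 had 1 more in Ly6CLo-RM. With equal-length lists, Ly6CHi-RM and Ly6CLo-RM had 7 and 5 peaks at Elovl6, 4 and 1 at Mvd, and 0 and 1 at Fads2. In the best-scored 50%, 3 of 52 Ly6CHi-RM peaks were absent from Ly6CLo-RM (5.77%, 1.98% to 15.6%; all genes 3.81%): a pair at Elovl6, 41485 and 79431 bp after the start, and 1 at Insig1, at -33563 bp. For the peak at 41485 bp the nearest Ly6CLo-RM centre was 20510 bp away; for the others it was 977 and 413 bp. In the other direction 1 of 49 was absent (2.04%; all genes 2.89%), at Fads2, chromosome 19, 10064366 to 10064566, inside the gene and 37037 bp after the start. Its score was 60, in the best 30.0% of Ly6CLo-RM; no other list held this region, and the nearest Ly6CHi-RM centre was 29486 bp away. Without regard to score, 21 of 91 Ly6CHi-RM peaks were absent from Ly6CLo-RM (23.1%; all genes 23.3%) and 11 of 82 the other way (13.4%; all genes 13.8%). More peaks in Ly6CHi-RM were found at 7 of 30 genes (23.3%; all genes 39.4%), and more in Ly6CLo-RM at 5 (16.7%; all genes 17.2%).

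Elovl6 (chromosome 3, 129532386 to 129638495) had the widest range of all 30 genes. It had 7 peaks in KC-H, 2 in KC-N, 2 in KN-RM, 12 in Ly6CHi-RM, 5 in Ly6CLo-RM and 17 in the blood list. The blood and Ly6CHi-RM counts are thus above those of every F4/80-Hi list, and of its 19 merged regions 1 was in all 6 lists. That region, 4006 bp after the start, scored 117 in KC-H, 115 in KC-N, 77 in KN-RM, 157 in Ly6CHi-RM, 150 in Ly6CLo-RM and 162 in blood, within the best 12.4% of each list. It ranked above the promoter peak of the gene in every list that had one. A region 80490 bp after the start ranked in the best 13.7% of Ly6CHi-RM and 8.90% of blood, at 45.4% in Ly6CLo-RM and at 64.0% in KC-H, and was in neither KC-N nor KN-RM. With equal-length lists the order was kept for the highest counts: 9 in blood, 7 in Ly6CHi-RM, 5 in Ly6CLo-RM, 2 in KN-RM and 1 each in KC-H and KC-N.

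**Figure D4:**
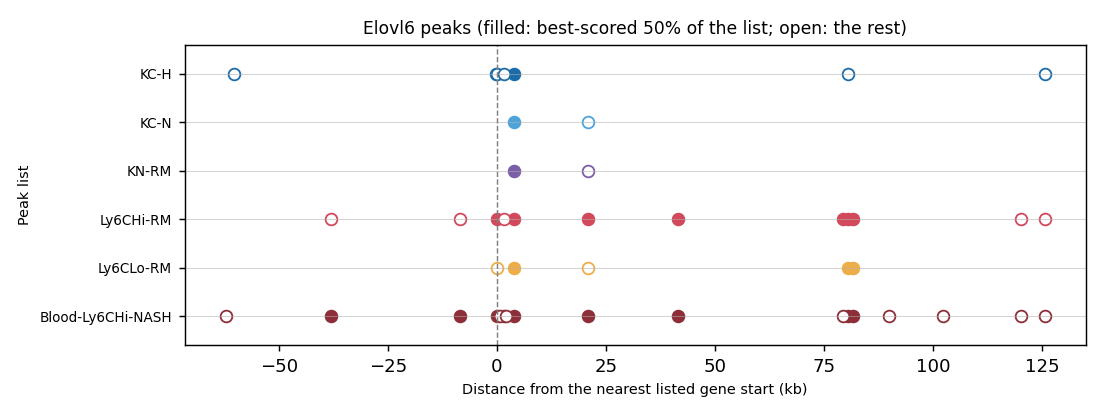
Merged regions at Elovl6 by distance from the gene start in kb (horizontal axis) in each of the 6 lists (rows); filled circles are in the best-scored 50% of the list and open circles in the rest. The region about 4 kb after the start is filled in all 6 rows, and the group near 80 kb is present in the blood and both CD11b-Hi rows and, as 1 open circle, in KC-H.

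F4/80-Hi populations were set against the blood and CD11b-Hi populations by the regions that all lists of one kind and none of the other held. There were 2 for KC-H, KC-N and KN-RM (1.47%, 0.404% to 5.20%; all genes 1.84%), at Dhcr7 and Fads1. The Dhcr7 region (chromosome 7, 143832378 to 143832592, inside the gene, 2271 bp after the nearest listed start) scored 96 for KC-H, 81 for KC-N and 56 for KN-RM, in the best 12.7% to 18.8%. The Fads1 region (chromosome 19, 10188671 to 10188876, inside the gene) scored 68, 35 and 22. The blood list, Ly6CHi-RM and Ly6CLo-RM shared 9 such regions (6.62%, 3.52% to 12.1%; all genes 5.67%): 2 at Srebf2 and 1 each at Mvd, Idi1, Lss, Cyp51, Sc5d, Elovl6 and Fads1. Both shares were near those of all genes.

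Srebf2 (chromosome 15, 82147269 to 82205379) showed this pattern beyond its promoter. Its peaks numbered 3 in KC-H, 2 in KC-N, 1 in KN-RM, 6 in Ly6CHi-RM, 6 in Ly6CLo-RM and 5 in blood. The region 49336 bp after the start, inside the gene (82196479 to 82196732), scored 82 in Ly6CHi-RM, 58 in Ly6CLo-RM and 79 in blood, in the best 23.7%, 31.8% and 24.1%, and was in no F4/80-Hi list. The other, 18239 bp after the start, scored 43, 31 and 46. A region at 4932 bp was in every list except KN-RM. At Mvd the corresponding region, 6605 bp after the start, scored 82 in Ly6CHi-RM, 24 in Ly6CLo-RM and 103 in blood.

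Insig1 had several of its distal peaks in Kupffer cells as well. Its regions at -7229 and 4688 bp from the start were in none of KC-H, KC-N and KN-RM. A cluster upstream comprised 3 regions, the farthest at -34450 bp and the nearest at -33576 bp from the start. The middle one was in all 6 lists, with scores of 123 in KC-H, 65 in KC-N, 42 in KN-RM, 93 in Ly6CHi-RM, 48 in Ly6CLo-RM and 69 in blood. The farthest one was in KC-H (score 57) and KC-N (score 43) only, and the nearest was absent from Ly6CLo-RM only. Msmo1 also had an adjoining pair inside the gene. The region 6995 bp after the start was in all 6 lists, and the one at 7275 bp was in KC-N (score 72) and KN-RM (score 33) only.

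**Figure D5:**
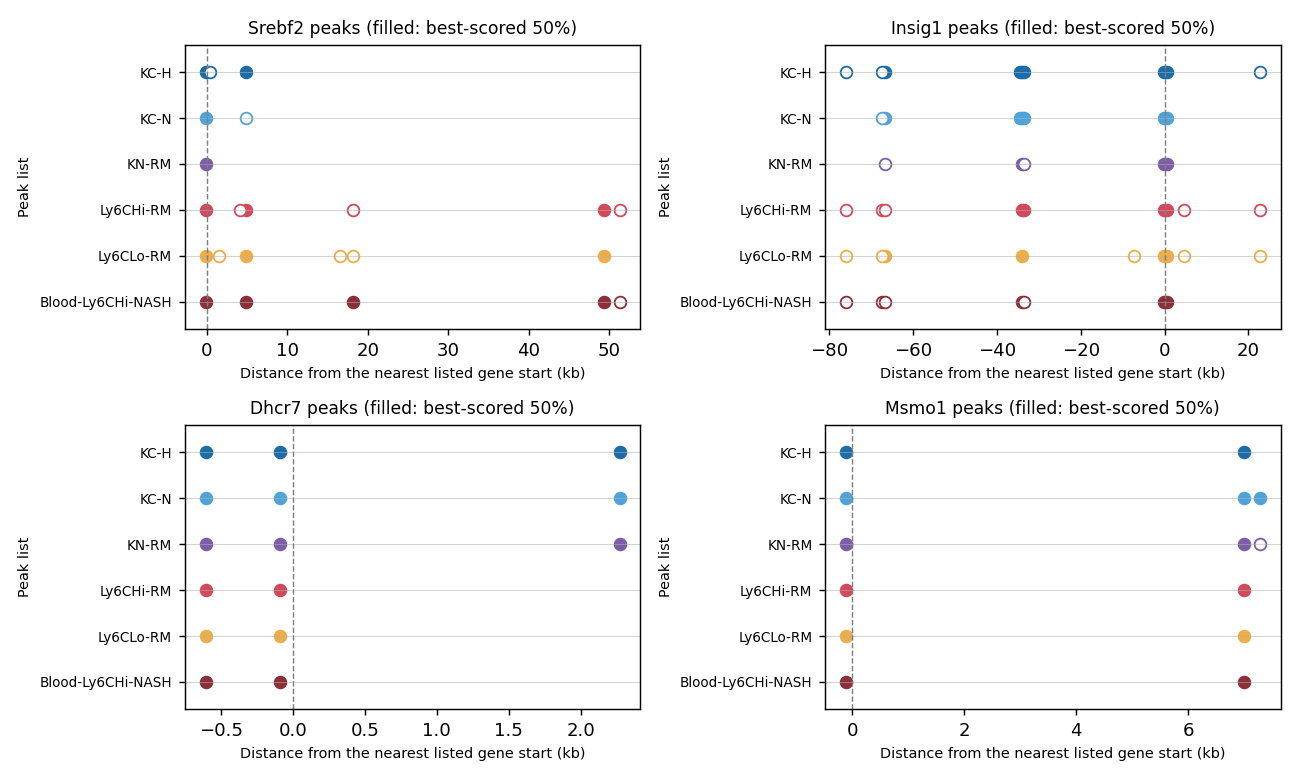
Merged regions at Srebf2, Insig1, Dhcr7 and Msmo1 by distance from the nearest listed gene start in kb, in each list (rows); filled circles are in the best-scored 50% of the list. At Srebf2 the regions near 18 and 49 kb are in the blood and CD11b-Hi rows only, and at Dhcr7 the region near 2.3 kb is in the 3 F4/80-Hi rows only.

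Regions in no F4/80-Hi list numbered 50 (36.8%, 29.1% to 45.1%; all genes 29.2%), at 19 genes, and 11 of these were at Elovl6. Without Elovl6 the count was 39 of 117 (33.3%). Regions in no blood or CD11b-Hi list numbered 15 (11.0%, 6.80% to 17.4%; all genes 17.9%). Of the regions in 1 list, 15 were of blood (11.0%; all genes 9.58%), 9 of Ly6CLo-RM (6.62%; all genes 3.89%) and 6 of KC-H (4.41%; all genes 9.63%). KC-N alone held 3 (2.21%, all genes 2007 of 95372), KN-RM alone 1 (0.735%, all genes 242 of 95372) and Ly6CHi-RM alone 1 (0.735%, all genes 1726 of 95372). The balance toward blood and CD11b-Hi lists was thus not seen in regions of Ly6CHi-RM alone. This balance has no test, and it rests in part on Elovl6. The lists also differ in length. In equal-length lists, 4 regions were in all F4/80-Hi lists only and 6 in blood and both CD11b-Hi lists only. In the full lists these were 2 and 9.

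The other genes of these pathways were taken from a list of 27, among them Srebf1, Scd1, Acss2, Mbtps1, Nfya and Sp1. Their peaks numbered 122 for KC-H, 95 for KC-N, 81 for KN-RM, 116 in Ly6CHi-RM, 99 in Ly6CLo-RM and 118 in blood. A promoter peak was present in all 6 lists for 24 of 27 (all genes 43.6%). More peaks in KC-H than in KC-N were found at 15 of 27 (all genes 50.6%) and fewer at 3 (all genes 13.2%). Of their best-scored peaks, 2 of 77 of KC-H were absent from KC-N (all genes 5.42%) and 0 of 64 the other way (all genes 3.64%). Over all genes, too, strong peaks were mostly shared between the diets.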

How the data were processed

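ATAC-seq libraries of 6 sorted mouse myeloid populations, 2 per group, were represented by 1 peak list per group, which the labels name for both libraries. Per the submitters' processing notes the tools were Bowtie2, HOMER and DESeq2 and the builds mm10 and GRCm38; not given in the sources used here were versions, roles, read filters and any transposase shift. The lists, as deposited, give each peak a position, a signal, which is the authors' normalized tag count, and a score, the authors' whole number, with no header. The scaling is not stated, so signal and score were used only within a list; ranks follow score, with ties ordered by signal. Nearly all peaks were 200 bp wide.

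Peaks were assigned to RefSeq genes (GRCm38.p6) as described with the results. Exons and introns were not examined. Starts came from the RefSeq promoter table, or from both gene ends for genes without an entry. Lists were compared by overlap of at least 1 bp, and shares have 95% Wilson intervals for counting error; peaks of 1 gene are not independent. No test was possible with 1 list per group, and a difference between groups cannot be told apart from one between the libraries or lists. The genes, gene lists and rules were chosen with earlier results of these data known. Genes named in full are those lacking a promoter peak in a list, the 6 with the most peaks, the 3 with the largest differences per comparison and direction, those with list-specific or population-specific regions, and the best promoter peaks. Alternatives were the overlap (50% of the shorter peak, or no centre within 1000 bp), score thresholds, equal-length lists, a 20 kb window, assignment to the nearest gene end, and promoter distances of 500 and 2500 bp. Functions were tested on simulated peaks. Computations used Python 3.11.15 with scipy 1.17.1, pandas 2.3.3 and numpy 2.4.6, and plots matplotlib 3.10.9.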

Additional observations from a re-analysis of the deposited data

How the results depend on the processing

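No paired analysis was possible because each group has 1 list made from both of its libraries, and leaving out a library was not run for the same reason. Of 125 values recomputed under alternatives, 96 stayed within 1.5 times the reported count. All counts of promoter peaks did so. Comparison counts are small, and 1 or 2 peaks move them.

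With all peaks in place of the best-scored 50%, the specific peaks of these genes numbered 20 (KC-H) and 8 (KC-N), 12 (KC-N) and 3 (KN-RM), 20 (blood) and 5 (Ly6CHi-RM), and 21 (Ly6CHi-RM) and 11 (Ly6CLo-RM). With the best-scored 25% they fell to 0 for KC-N against KN-RM and to 0 in both directions for Ly6CHi-RM and Ly6CLo-RM. Requiring no centre of the other list within 1000 bp left 0 of KC-N against KC-H, 0 of KC-N against KN-RM and 1 of Ly6CHi-RM against Ly6CLo-RM. With equal-length lists there were 0 of KC-N against KN-RM and 1 of Ly6CHi-RM against Ly6CLo-RM, and with a 20 kb window 1 of KC-N against KN-RM.

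Member peaks in the best-scored 50% numbered 48 in KC-H, 52 in Ly6CHi-RM, 49 in Ly6CLo-RM and 59 in blood. In equal-length lists they numbered 60 in Ly6CHi-RM and 58 in blood. Merged regions fell to 73 with the best-scored 50% and 82 with equal-length lists. Regions of all F4/80-Hi lists only were 1 and 4 under these settings, and those of blood and both CD11b-Hi lists only were 4 and 6. These settings use fewer peaks by construction. The shorter motif CACNCCAC, chosen after the data were seen, was found for 3 genes (Hmgcs1, Acat2 and Insig1; 12% against 7.26% of all) in place of 1.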

Other observations

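Among the 27 other pathway genes, the promoter peaks of Hsd17b12, which acts in fatty acid elongation, ranked in the best 0.0919% to 0.326% of all lists. Those of Ggps1, which makes geranylgeranyl diphosphate from farnesyl units, ranked in the best 0.293% to 1.02%. Scd1, the stearoyl-CoA desaturase gene, had 16 peaks on the control diet (KC-H), 8 for KC-N, 9 for KN-RM, 6 in Ly6CHi-RM, 5 in Ly6CLo-RM and 8 in blood. Its promoter peak ranked at 25.5% for KC-H, 44.7% for KC-N and 33.2% for KN-RM, and at 80.4% in Ly6CHi-RM, 80.0% in Ly6CLo-RM and 71.7% in blood. The blood value comes from another peak than that of the liver lists, and ranks in lists of different lengths are given side by side only. Mlxipl, which encodes a carbohydrate-responsive factor, and Mbtps2, which encodes a protease that releases the sterol factor, had a promoter peak in every list except KN-RM, and Acacb had one in none. KN-RM is the shortest list, and some of the peaks present elsewhere ranked low, at 95.5% for Mbtps2 in KC-N and 89.7% for Mlxipl in Ly6CLo-RM. These genes were chosen after their values were seen.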
